A study of Rattus norvegicus with 172 samples.

Results

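The 7 genes Fos, Fosb, Fosl1, Fosl2, Jun, Junb and Jund encode the Fos and Jun proteins, the subunits of the transcription factor AP-1. They were chosen by gene symbol, with earlier results of these data known, and all are reported whatever their values. The choice was from the 10761 genes measured in dentate granule cells of rats in models of epilepsy. Each member was represented by its brightest probe set. Granule cells, the main excitatory neurons of the dentate gyrus, had been cut by laser from stained sections of male Sprague-Dawley rats, and amplified RNA of 164 rats was hybridised to 172 one-colour Affymetrix arrays. The 28 groups belong to 4 epilepsy models in 7 laboratories, with controls in every laboratory.

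In the pilocarpine model, rats of laboratories A and B were given methylscopolamine at 1 mg/kg and, 30 minutes later, pilocarpine at 300 to 350 mg/kg. Status epilepticus, a state of unbroken seizures, was ended with pentobarbital at 25 mg/kg after 90 minutes, and control rats had saline in place of pilocarpine. In the kainate model, injections of 5 mg/kg were repeated hourly until status epilepticus began, with a first dose of 7.5 mg/kg in laboratory B, and controls had saline. Laboratory A of this model let the seizures end by themselves within 6 to 8 hours, whereas laboratory B stopped them with pentobarbital 90 minutes after their onset. The third model carries the label SSSE, came from 1 laboratory and had 6 rats at day 1, 5 at day 3, 4 at day 10 and 5 controls. Rats of these 3 models were taken 1, 3 and 10 days after status epilepticus. In the kindling model, run by laboratories A and B, rats were taken at kindling stages 2, 4 and 5. The procedures of the SSSE and kindling models and of their controls are not described in the labels used here. Every group outside the SSSE model had 6 rats, and the design text calls the rats biological replicates. The labels of 2 rats conflict: SSSE day 1 rat 3 is day 1 by its title but control by its harvest time, and kindling A stage 2 rat 4 carries the kainate model beside a kindling laboratory and stage. Both were kept in these groups, and without them all calls against controls and between times stood, while 1 difference between models did not.

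Fos proteins pair only with Jun proteins, or with a few relatives, to bind DNA, while Jun proteins can also pair with each other. Most of these genes are immediate early genes, which neurons transcribe within minutes of strong activity and soon switch off again, so that Fos RNA is widely used as a trace of recent firing. Fosb also yields a truncated product, ΔFosB, which is very stable and builds up in the dentate gyrus after repeated seizures, and Jund is known as the member whose RNA is present at steady levels in resting cells. The files do not tell the Fosb splice forms apart.

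A level is given throughout as log2 of the deposited signal plus 16, and a change is the difference of 2 such levels with its standard error, which understates the change of dim probe sets. A gene passed the test where its Benjamini-Hochberg adjusted p in limma, over all 10761 genes, was under 0.05. Group means are given with the SD over rats, and 3 values of a group are its lowest, median and highest rat.

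The DNA before the annotated start of some of these genes is shown because 6 members passed the test at pilocarpine day 1 while Jund passed in no comparison. Whether the change of Jund differed from those of the other members was not tested. In pilocarpine laboratory B at day 1 the Jund change of 0.53 lay within the range of the others, 0.30 (Fosb) to 0.88 (Fosl2). Jund did pass at pilocarpine day 1 with 1 limma fit over all 28 groups (adjusted p = 0.0099). Whether these sequences bear on the changes was not tested. In these runs of 250 bases from RefSeq (build GRCr8, 5′ to 3′, ending just before the start), capitals mark the cAMP response element TGACGTCA or its shorter form TGACG, found on either strand.
Fosl2 (chr6:30039270-30039519, minus strand): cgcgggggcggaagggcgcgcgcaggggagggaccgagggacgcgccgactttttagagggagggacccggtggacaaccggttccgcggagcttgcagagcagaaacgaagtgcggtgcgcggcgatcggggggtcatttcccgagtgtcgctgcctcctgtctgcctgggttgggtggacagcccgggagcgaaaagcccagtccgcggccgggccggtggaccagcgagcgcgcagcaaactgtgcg
Fosb (chr1:88089185-88089434, minus strand): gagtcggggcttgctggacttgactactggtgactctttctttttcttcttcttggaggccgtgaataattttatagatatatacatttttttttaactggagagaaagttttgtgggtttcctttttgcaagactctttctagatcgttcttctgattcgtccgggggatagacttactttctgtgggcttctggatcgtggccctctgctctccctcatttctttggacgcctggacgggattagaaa
Junb (chr19:40080876-40081125, plus strand): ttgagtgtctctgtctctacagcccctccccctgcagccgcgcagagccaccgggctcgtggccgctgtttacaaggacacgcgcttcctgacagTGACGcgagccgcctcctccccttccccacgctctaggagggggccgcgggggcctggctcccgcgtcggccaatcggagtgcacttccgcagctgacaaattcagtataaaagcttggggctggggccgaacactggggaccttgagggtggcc
Jund (chr16:18769772-18770021, minus strand): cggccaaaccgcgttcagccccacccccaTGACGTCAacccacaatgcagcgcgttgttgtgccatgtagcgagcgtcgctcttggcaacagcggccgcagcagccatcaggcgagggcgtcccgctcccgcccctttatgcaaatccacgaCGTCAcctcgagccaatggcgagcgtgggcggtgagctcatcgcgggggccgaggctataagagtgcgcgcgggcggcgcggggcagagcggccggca
The sequence table matched 5 of the 7 genes, and Fos and Jun have no entry in it. Jund was the only matched member with the full TGACGTCA, 221 to 214 bases before its start, a motif that 1.59% of all 33469 such sequences hold. The shorter TGACG, which lies inside the full motif, was found in Jund, at 1 place in Junb (155 to 151 bases before the start) and at 2 places in Fosl1, against 18.2% of all sequences. Neither the AP-1 motif TGANTCA (6.34% of all) nor the CArG box bound by serum response factor (1.5% of all) was found in the 5 windows, on either strand. These are matches of letters in a short window and not measured binding.

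One day after pilocarpine status epilepticus, 6 of the 7 genes had risen, in a comparison where 15.8% of all genes passed the test as higher and 32.1% in either direction. All 7, Jund included, had an unadjusted p under 0.05 there (limma). At the same time point after kainate only Fosl2 passed (22.2% of all genes were higher), with 2 members at an unadjusted p under 0.05. The day 1 change of no member differed between pilocarpine and kainate past the threshold (limma, smallest adjusted p = 0.0606, for Fos). After SSSE none of the 7 passed with limma at day 1 (12.5% of all genes passed in either direction), although 2 had an unadjusted p under 0.05. At day 3 no member passed in any of the 3 models, where 11.7% of all genes passed after pilocarpine, 7.96% after kainate and 3.14% after SSSE in either direction (limma, with 1, 2 and 0 members at an unadjusted p under 0.05). At day 10 0 members passed after pilocarpine (8.93% of all genes) and SSSE (0.344%), with 0 at an unadjusted p under 0.05 in either. Fosb and Fosl2 were higher in kainate rats at day 10 (2.57% of all genes were higher), with 4 members at an unadjusted p under 0.05. In kindling no member passed at stages 2 and 4, where no gene at all passed with limma (0% of the 10761), and at stage 5 Fos and Jun were lower (3.87% of all genes were lower). At an unadjusted p under 0.05, 0 members would have counted at stage 2, 1 at stage 4 and 2 at stage 5. Across the 12 comparisons the median change of the 7 genes ran between -0.19 at SSSE day 10 and 0.91 at pilocarpine day 1, while the median over all genes stayed within 0.02 of 0 on the log2 scale. In such bulk samples fewer cells of a type and less RNA per cell cannot be told apart.

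**Figure D1:**
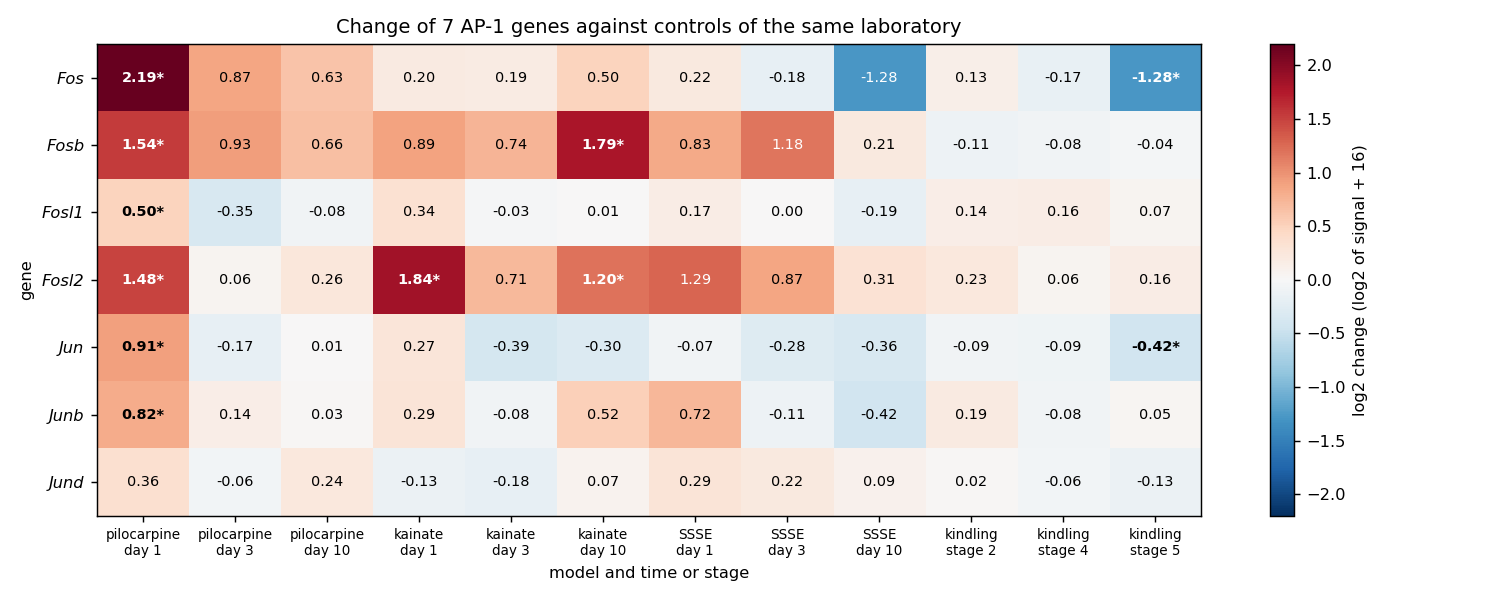
Log2 change of each gene (vertical) in each model and time or stage (horizontal) against controls of the same laboratory, with an asterisk where the adjusted p from limma was under 0.05. The column of pilocarpine day 1 has 6 marked genes, Fosl2 is marked in 3 comparisons, Jund in none, and the 2 negative marked values are Fos (-1.28) and Jun (-0.42) at kindling stage 5.

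Fos, the founding member and the classical marker of recently active neurons, rose 1 day after pilocarpine by 2.19 ± 0.59 on the log2 scale, or 4.56-fold (limma, adjusted p = 0.00332, n = 12 rats against 12). In laboratory A its level was 7.48, 11.09 and 11.92 in day 1 rats, against 5.47, 6.20 and 8.20 in controls. In laboratory B it was 5.04, 7.76 and 8.81 in day 1 rats, against 5.04, 6.76 and 7.96 in controls. The distribution in laboratory A was wide: 4 of 6 rats lay above every control and the other 2 within the controls' range, and in laboratory B only 2 of 6 lay above. Within the model's fit the change was 3.71 in laboratory A (adjusted p = 9.79e-04) and 0.67 in laboratory B (adjusted p = 0.637). Their difference of 3.05 ± 1.18 did not pass after adjustment over all genes (limma, adjusted p = 0.38). Of the 63 laboratory differences tested for the 7 genes 0 passed, in a comparison where 0% of all genes passed at pilocarpine day 1. In laboratory A, 5 members passed on their own at day 1, all of them higher (10.2% of all genes were), and in laboratory B none did (7.91% were higher).

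On later days after pilocarpine the differences of Fos from controls were 0.87 ± 0.59 (day 3) and 0.63 ± 0.59 (day 10), and neither passed. One rat of laboratory B reached 12.32 at day 3, the highest Fos level of all 164 rats, while the other 5 rats of its group lay between 5.56 and 6.44. In kainate rats no Fos change passed, with 0.20, 0.19 and 0.50 at days 1, 3 and 10, the smallest adjusted p being 0.498. At day 10 it spread widely, with 5.86, 6.69 and 10.02 in laboratory B, against 6.88, 7.81 and 8.22 in its controls, so that 2 rats lay above and 3 below every control. In SSSE rats at day 10 the level was 5.05, 5.83, 5.07 and 5.17, against 6.46, 6.55, 7.07, 6.85 and 5.84 in controls. All 4 lay below every control, which 3.34% of all genes did in this comparison, but the change of -1.28 ± 0.83 did not pass (limma, adjusted p = 0.687).

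At kindling stage 5 Fos had fallen by 1.28 ± 0.27 on the log2 scale, or to 0.412 of the control level (limma, adjusted p = 0.00257). In laboratory A the level was 6.37, 7.05 and 7.96 at stage 5, against 6.86, 7.93 and 9.38 in controls. In laboratory B it was 4.36, 5.01 and 6.42 at stage 5, against 5.95, 6.57 and 7.69 in controls. The change was -1.08 in A and -1.47 in B, and neither passed within the model's fit (adjusted p = 0.138 and 0.0588), although laboratory B passed when fitted alone (adjusted p = 0.0357) and laboratory A did not (0.189). In all, 6 of 12 rats lay below every control of their laboratory. Stage 5 was also lower than stage 2 by the test of that difference (-1.41 ± 0.27, limma, adjusted p = 0.00234), where 1.84% of all genes were. When all 28 groups shared 1 estimate of the spread, the fall at stage 5 did not pass (adjusted p = 0.206). The second Fos probe set on the array lay below the median of its array in every rat and differed from controls by 0.00 at stage 5 (adjusted p = 0.980) and by 0.17 at pilocarpine day 1 (adjusted p = 0.298), so the Fos results rest on 1 probe set.

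Over the 28 groups the mean Fos level ran from 5.22 ± 0.86 in kindling laboratory B at stage 5 to 10.24 ± 1.97 in pilocarpine laboratory A at day 1. In that order only 1 of the 27 steps between neighbours was larger than the larger SD of the pair, the step between kainate A controls and SSSE day 10. Control means alone ran between 6.23 in kainate A and 8.10 in kindling A, which is why levels are compared only with controls of the same laboratory.

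Fosb, whose stable product ΔFosB outlasts the seizure that induced it, rose at 2 time points. It was higher at pilocarpine day 1 by 1.54 ± 0.43, or 2.91-fold (limma, adjusted p = 0.00473). Its level in laboratory A was 5.89, 8.17 and 11.63 in day 1 rats, against 5.48, 5.99 and 6.29 in controls. In laboratory B it was 6.04, 6.59 and 7.77 in day 1 rats, against 6.17, 6.44 and 7.15 in controls. Thus 5 of 6 rats lay above every control in laboratory A and 2 of 6 in laboratory B, and the change was 2.78 in A (adjusted p = 7.57e-04) and 0.30 in B (adjusted p = 0.786). Between laboratories the change differed by 2.48 ± 0.86, which did not pass over all genes (adjusted p = 0.315).

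At day 10 after kainate Fosb had risen by 1.79 ± 0.45, or 3.46-fold (limma, adjusted p = 0.00931, n = 12 against 12). Laboratory A had 6.64, 6.94 and 11.25 in day 10 rats, against 5.64, 6.04 and 6.41 in controls. Laboratory B had 6.42, 7.15 and 11.55 in day 10 rats, against 6.09, 6.33 and 6.76 in controls. Most of these rats sat a little above their controls, 11 of 12 of them beyond every control, and 4 stood far higher, at 11.25 and 8.66 in A and 11.55 and 9.93 in B. The change was nearly equal in the laboratories, 1.80 in A and 1.78 in B, and neither passed within the model's fit (adjusted p = 0.161 and 0.19). Fitted alone, laboratory A passed (adjusted p = 0.0440) and laboratory B did not (0.427). Leaving out each of the 24 rats in turn gave changes of 1.45 to 1.97, each of which passed.

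In kainate rats Fosb also lay above most controls at earlier times. In laboratory A all 6 rats lay above every control at day 1 (6.43, 6.82 and 7.17), at day 3 (6.60, 6.83 and 7.65) and at day 10. Of all genes, 8.92% did so at day 1 in that laboratory, 2.10% at day 3 and 0.939% at day 10. Over both laboratories 10 of 12 rats lay above at day 1 and 10 of 12 at day 3, yet the changes of 0.89 ± 0.45 and 0.74 ± 0.45 did not pass (adjusted p = 0.111 and 0.384). In pilocarpine laboratory A, too, all 6 rats lay above their controls at day 3, with 6.42, 6.63 and 7.14, against 5.48, 5.99 and 6.29 in controls (2.00% of all genes did), while the change over both laboratories, 0.93 ± 0.43, did not pass (adjusted p = 0.169).

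In SSSE rats Fosb was 6.06, 6.63 and 11.24 at day 1, 7.12, 7.31, 9.83, 7.00 and 7.09 at day 3 and 6.57, 7.03, 6.60 and 6.62 at day 10, against 7.11, 6.15, 6.40, 6.55 and 6.25 in controls. Only 1 rat at day 1 and 3 of 5 at day 3 lay above the controls, and none of the 3 changes passed, the highest being 1.18 ± 0.72 at day 3 (adjusted p = 0.399). At kindling stage 5 all 6 rats of laboratory A lay below every control, with 6.06, 6.58 and 6.66 at stage 5 against 6.67, 6.80 and 7.41 in controls (0.604% of all genes did), and laboratory B had 5.98, 6.41 and 7.16 at stage 5 against 6.08, 6.13 and 6.58 in controls. The change was -0.40 in A and 0.32 in B, and their difference of -0.71 ± 0.26 did not pass (limma, adjusted p = 0.963).

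Group means of Fosb ran from 5.93 ± 0.34 in pilocarpine A controls to 8.71 ± 2.36 in pilocarpine A at day 1, and no step between neighbours in the order of 28 groups exceeded the larger SD of its pair. The 5 highest means were those of pilocarpine A day 1, kainate B day 10, kainate A day 10, SSSE day 3 and pilocarpine B day 3. In each of these groups at least 1 rat lay above 9.8.

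**Figure D2:**
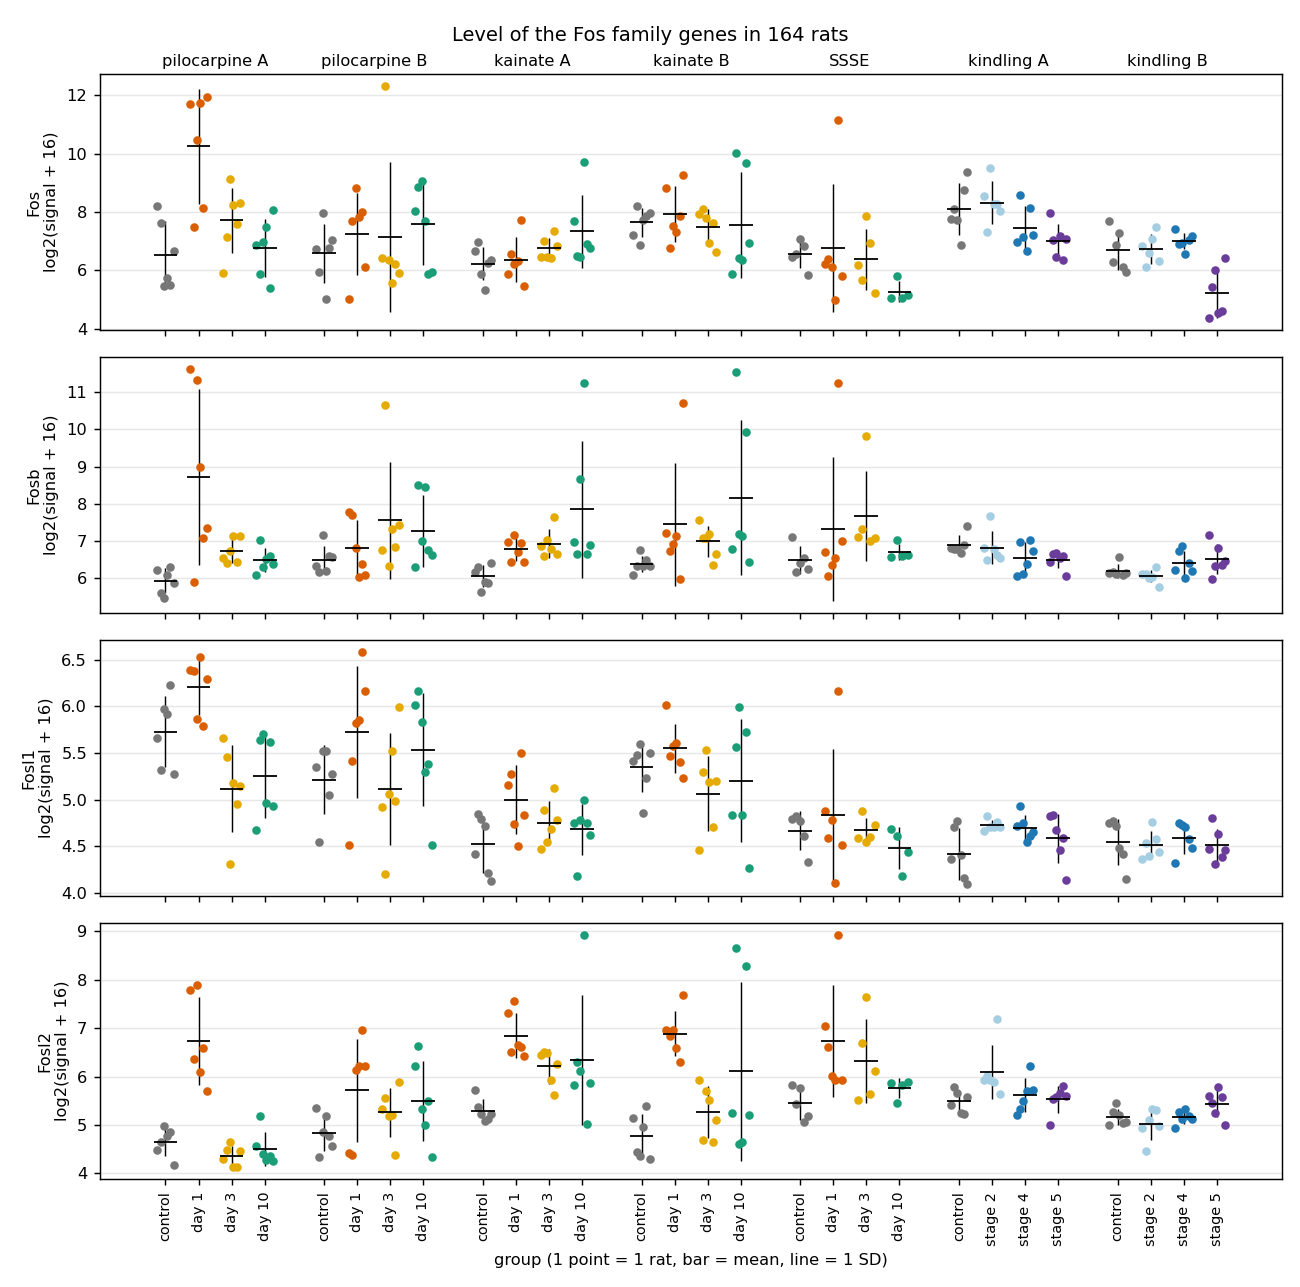
Level of Fos, Fosb, Fosl1 and Fosl2 (vertical, log2 of signal plus 16) in each of 164 rats (points) by laboratory and time or stage (horizontal), with the group mean (bar) and 1 SD (line). Fosl2 is above every control in all 12 kainate rats at day 1, and single rats stand far above their groups, such as the Fos value of 12.32 in pilocarpine B at day 3.

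Fosl2, which encodes Fra-2, a Fos relative that lacks a strong activation domain and is usually induced later than Fos, was the member raised most often, in 3 of 12 comparisons. One day after kainate it rose by 1.84 ± 0.35, or 3.58-fold (limma, adjusted p = 2.50e-05). Laboratory A had 6.43, 6.64 and 7.56 in day 1 rats, against 5.09, 5.23 and 5.73 in controls. Laboratory B had 6.30, 6.90 and 7.68 in day 1 rats, against 4.29, 4.70 and 5.39 in controls. All 12 rats lay above every control of their own laboratory, which 3.53% of all genes did, and the change passed in each laboratory within the model's fit (1.56, adjusted p = 0.0163 in A and 2.12, adjusted p = 6.38e-04 in B), where 12.4% of all genes in A and 16.4% in B were higher.

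One day after pilocarpine Fosl2 rose by 1.48 ± 0.25, or 2.79-fold (limma, adjusted p = 8.51e-06). In laboratory A the level was 5.69, 6.48 and 7.90 in day 1 rats, against 4.17, 4.70 and 4.98 in controls. In laboratory B it was 4.37, 6.18 and 6.96 in day 1 rats, against 4.34, 4.81 and 5.36 in controls. The groups did not overlap in laboratory A (4.53% of all genes were wholly above their controls there), and 4 of 6 rats lay above in laboratory B. In SSSE rats at day 1 the level was 5.92, 6.30 and 8.93, against 5.82, 5.43, 5.76, 5.05 and 5.18 in controls. Here again all 6 rats lay above every control (2.95% of all genes), but the change of 1.29 ± 0.44 did not pass (limma, adjusted p = 0.0626), although it did with 1 fit over all 28 groups (adjusted p = 0.0285) or without SSSE day 1 rat 4 or rat 6. The day 1 change of Fosl2 did not differ between models past the threshold, with pilocarpine minus kainate at -0.36 ± 0.39 (adjusted p = 0.655) and kainate minus SSSE at 0.55 ± 0.49 (adjusted p = 0.706).

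After day 1 Fosl2 was lower in pilocarpine rats. Day 3 minus day 1 was -1.42 ± 0.25 (limma, adjusted p = 6.19e-05) and day 10 minus day 1 was -1.23 ± 0.25 (adjusted p = 8.64e-04). Of all genes, 9.13% were lower at day 3 than at day 1 and 9.01% at day 10 than at day 1. After kainate, day 3 minus day 1 was -1.13 ± 0.35 (adjusted p = 0.00975, where 15.9% of all genes were lower), with 8 of 12 rats still above every control and a change of 0.71 ± 0.35 that did not pass (adjusted p = 0.243).

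At day 10 after kainate Fosl2 was higher by 1.20 ± 0.35 (limma, adjusted p = 0.0264). Laboratory A had 5.02, 5.98 and 8.94 in day 10 rats, against 5.09, 5.23 and 5.73 in controls, and laboratory B had 4.61, 5.22 and 8.66 in day 10 rats, against 4.29, 4.70 and 5.39 in controls. In laboratory A 5 of 6 rats lay above every control and 1 below, while in laboratory B only 2 did, both above 8. The call rested on few rats: without kainate A day 10 rat 4 the change was 0.94 (adjusted p = 0.0695), without kainate B day 10 rat 2 it was 0.94 (adjusted p = 0.0706), and without kainate B day 10 rat 5 it was 0.98 (adjusted p = 0.0698). The last of these rats correlated less well with its own group than the others did, and is among 6 such rats in the study.

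In kindling the differences of Fosl2 from controls were 0.23, 0.06 and 0.16 at stages 2, 4 and 5, and none passed. The laboratories differed most at stage 2, where 5 of 6 rats of A lay above their controls and 3 of 6 of B below theirs (0.76 ± 0.25 for A minus B, adjusted p = 0.981). Over the 28 groups Fosl2 ran from 4.36 ± 0.21 in pilocarpine A at day 3 to 6.89 ± 0.46 in kainate B at day 1, and the 4 highest means were all day 1 groups. No step between neighbours exceeded the larger SD. A second, dimmer Fosl2 probe set correlated with it at 0.68 across rats within groups, but at kainate day 10 it gave a change of 0.41 that did not pass (adjusted p = 0.137).

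Fosl1, which encodes Fra-1, an AP-1 subunit better known from epithelial and tumour cells, lay above the median of its array in only 22 of 164 rats. It rose at pilocarpine day 1 by 0.50 ± 0.20, or 1.41-fold, just within the threshold (limma, adjusted p = 0.049). Laboratory A had 5.79, 6.33 and 6.53 in day 1 rats, against 5.28, 5.79 and 6.23 in controls, and laboratory B had 4.51, 5.83 and 6.59 in day 1 rats, against 4.55, 5.32 and 5.52 in controls. In each laboratory 4 of 6 rats lay above every control. With rats left out in turn the call was lost for 16 of 24 rats, and with only the first array of each rat the change was 0.28 (adjusted p = 0.299).

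Later Fosl1 was lower than at day 1 after pilocarpine, with a difference of -0.85 ± 0.20 at day 3 (limma, adjusted p = 0.00151) and of -0.57 ± 0.20 at day 10 (adjusted p = 0.0407). At kainate day 1 its change of 0.34 ± 0.15 did not pass (adjusted p = 0.0569). All other changes of Fosl1 lay between -0.35 and 0.17. In the order of group means all 8 pilocarpine groups and all 4 kainate B groups had means above 5, and all kindling and SSSE groups had means below it.

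Jun, the main partner of the Fos proteins, was measured by a bright probe set that lay far above the array median in every rat. At pilocarpine day 1 it rose by 0.91 ± 0.20, or 1.87-fold (limma, adjusted p = 3.23e-04). In laboratory A the level was 12.38, 12.67 and 12.94 in day 1 rats, against 10.96, 11.34 and 11.72 in controls. In laboratory B it was 9.70, 11.97 and 12.20 in day 1 rats, against 10.57, 11.02 and 11.59 in controls. The groups of laboratory A were apart, as were those of 4.53% of all genes in that direction. The SD among these day 1 rats was 0.22, and the step from the next highest group mean was larger than the larger SD of the pair. In laboratory B 4 of 6 rats lay above every control and 1 below. The change was 1.31 in A (adjusted p = 5.19e-04) and 0.50 in B (adjusted p = 0.227).

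With the brightest probe set neither of the other status epilepticus models had a Jun change at day 1 that passed. It was 0.27 ± 0.14 after kainate (limma, adjusted p = 0.121), which did pass with the second brightest Jun probe set (0.74, adjusted p = 6.77e-04) and after quantile normalization (0.30, adjusted p = 0.0471), and -0.07 ± 0.20 after SSSE (adjusted p = 0.842). Jun was the only member whose day 1 change differed between models by a test of the difference: pilocarpine minus SSSE was 0.98 ± 0.28 (limma, adjusted p = 0.0387), where 1.30% of all genes differed in that direction. Pilocarpine minus kainate was 0.63 ± 0.22 (adjusted p = 0.0863) and did not pass. The first of these differences did not pass after quantile normalization, nor without SSSE day 1 rat 3, the rat of conflicting labels, where it was 0.91 (adjusted p = 0.0822).

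From day 1 to later days Jun was lower in both models with 2 laboratories. After pilocarpine it differed by -1.08 ± 0.20 at day 3 and -0.89 ± 0.20 at day 10 (limma, adjusted p = 9.02e-05 and 0.00177). After kainate it differed by -0.66 ± 0.14 at day 3 and -0.57 ± 0.14 at day 10 (adjusted p = 2.54e-04 and 0.00137), where 15.9% and 18.8% of all genes were lower. At kainate day 3, 6 of 12 rats lay below every control, with a change of -0.39 ± 0.14 that did not pass (adjusted p = 0.0771) but did after quantile normalization (adjusted p = 0.0437). In SSSE rats 4 of 5 at day 3 and 3 of 4 at day 10 also lay below every control, with changes of -0.28 ± 0.21 and -0.36 ± 0.22 that did not pass.

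At kindling stage 5 Jun fell by 0.42 ± 0.13 on the log2 scale (limma, adjusted p = 0.0319). Laboratory A had 9.59, 10.22 and 10.87 at stage 5, against 10.55, 10.63 and 10.75 in controls, and laboratory B had 9.55, 10.02 and 10.91 at stage 5, against 10.29, 10.47 and 10.87 in controls. In all, 9 of 12 rats lay below every control of their laboratory and 2 above. The changes were alike, -0.42 in A and -0.42 in B, and neither passed when fitted alone (adjusted p = 0.265 and 0.262). Leaving out 1 rat ended the call for 7 of 24 rats, with adjusted p up to 0.0771, and the fit over 28 groups gave 0.245.

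Junb, a Jun protein that activates less than Jun and is itself an immediate early gene, rose at pilocarpine day 1 by 0.82 ± 0.27, or 1.76-fold (limma, adjusted p = 0.0151). Laboratory A had 6.87, 7.71 and 8.57 in day 1 rats, against 5.80, 6.63 and 7.76 in controls, and laboratory B had 6.25, 6.89 and 7.42 in day 1 rats, against 5.76, 6.28 and 6.78 in controls. The groups overlapped in both laboratories, and 5 of 12 rats lay above every control. By day 10 Junb was lower than at day 1, with a difference of -0.78 ± 0.27 (limma, adjusted p = 0.0368). In the other models no change passed, the highest being 0.72 ± 0.57 at SSSE day 1, where 1 rat at 10.73 stood alone and the other 5 lay between 6.14 and 6.45, and 0.52 ± 0.23 at kainate day 10 (adjusted p = 0.416 and 0.199). Group means ran from 5.87 ± 0.29 at SSSE day 10 to 7.62 ± 0.65 in pilocarpine A at day 1.

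Jund, the member known for steady RNA levels, passed in none of the 12 comparisons. Its changes lay between -0.18 at kainate day 3 and 0.36 at pilocarpine day 1, and the pilocarpine value had a standard error of 0.17 (limma, adjusted p = 0.0943). In pilocarpine laboratory B it was 11.10, 11.54 and 12.27 in day 1 rats, against 10.90, 11.03 and 11.41 in controls, and in laboratory A it was 10.99, 11.37 and 11.72 in day 1 rats, against 10.81, 11.11 and 11.76 in controls. So 4 of 6 rats lay above every control in B and none in A. With 1 fit over all 28 groups, or without the 6 rats of low correlation, the pilocarpine day 1 change did pass (adjusted p = 0.0099 and 0.0340). The other Jund probe sets lay below the median of their array in every rat. They correlated with the one used at 0.21 and 0.14 across rats within groups, so the Jund results rest on 1 probe set.

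Jund differed between laboratories. Control means ran from 9.72 ± 0.28 in SSSE and 9.86 ± 0.13 in kindling A to 11.18 ± 0.39 in pilocarpine A and 11.67 ± 0.17 in kainate B. That span of 1.95 compares with a median SD of 0.21 within control groups. Of the 27 steps in the order of group means, 2 exceeded the larger SD of the pair, both between groups of different laboratories.

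**Figure D3:**
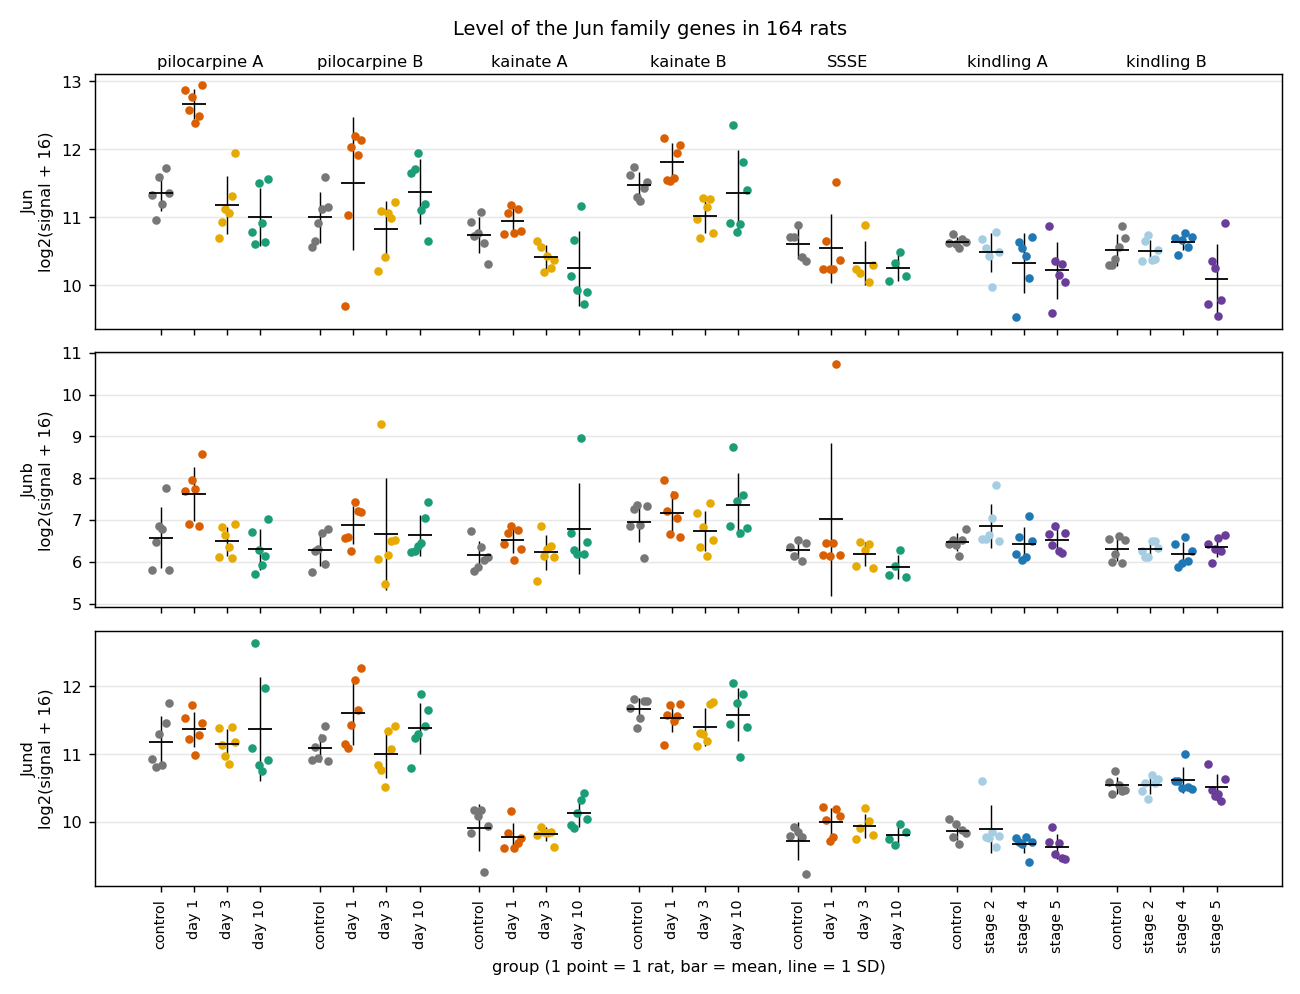
Level of Jun, Junb and Jund (vertical, log2 of signal plus 16) in each of 164 rats (points) by laboratory and time or stage (horizontal), with the group mean (bar) and 1 SD (line). Jun in pilocarpine A at day 1 lies at 12.38 to 12.94, above every control of that laboratory, and the control means of Jund run from 9.72 in SSSE to 11.67 in kainate B.

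Other genes of the AP-1 pathway, AP-1 targets and other immediate early genes were followed as lists. These lists were chosen with earlier results of these data known, so their counts are a description and not an independent test. Of 16 measured bZIP partners and relatives, 4 were higher and 0 lower at pilocarpine day 1 (median change 0.25, against 0.00 over all genes), and 3 were higher and 2 lower at kainate day 1. Over all genes 15.8% were higher at pilocarpine day 1 and 22.2% at kainate day 1, and 32.1% and 41.6% passed in either direction. The kainate day 1 counts were no larger than those shares. Atf3, a stress-induced partner of Jun, rose at pilocarpine day 1 by 1.72 ± 0.32 (limma, adjusted p = 5.25e-05), and Crem, which yields the cAMP-induced repressor ICER, rose by 1.22 ± 0.21 (adjusted p = 9.74e-06). At kainate day 1 Ddit3, a C/EBP relative of the unfolded protein response, fell by 1.07 ± 0.18 on the log2 scale (adjusted p = 4.85e-06). Of 19 kinases and factors that act on AP-1, 3 were higher and 3 lower at pilocarpine day 1 and 4 higher and 5 lower at kainate day 1, which is near the share of all genes that passed in either direction at each time. Among these Elk1, a serum response factor partner that acts at the Fos promoter, rose at kainate day 1 by 0.84 ± 0.11 (adjusted p = 3.14e-08) and at kindling stage 5 by 0.47 ± 0.09 (adjusted p = 0.00147).

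Genes known as AP-1 targets had 14 of 25 measured members higher and 2 lower at pilocarpine day 1 (median change 0.83) and 13 higher and 5 lower at kainate day 1 (median 0.71), where of the Fos and Jun genes only Fosl2 had passed. The shares of all genes that were higher are again 15.8% and 22.2%. Hspb1, a small heat shock protein, rose by 3.02 ± 0.48 at pilocarpine day 1 and 4.32 ± 0.26 at kainate day 1 (limma, adjusted p = 2.92e-06 and 6.74e-18). Timp1, an inhibitor of matrix metalloproteinases, rose by 3.10 ± 0.45 and 3.49 ± 0.25 (adjusted p = 7.64e-07 and 1.69e-15). Ntf3, which encodes neurotrophin 3, fell at kainate day 1 by 3.39 ± 0.38 on the log2 scale (adjusted p = 5.49e-10). At SSSE day 1, 3 of the 25 were higher and 2 lower (5.51% of all genes were higher), and Npy, a neuropeptide that granule cells make after seizures, rose by 2.85 ± 0.76 (adjusted p = 0.0204).

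The list of other immediate early genes had 20 of 31 higher and 1 lower at pilocarpine day 1 (median change 0.81). It had 14 higher and 1 lower at kainate day 1 (median 0.33) and 6 higher at SSSE day 1 (median 0.37). Of all genes, 15.8% were higher at pilocarpine day 1, 22.2% at kainate day 1 and 5.51% at SSSE day 1. Ptgs2, the inducible cyclooxygenase, rose in all 3 models at day 1, by 2.17 ± 0.25 after pilocarpine, 2.24 ± 0.23 after kainate and 1.40 ± 0.26 after SSSE (limma, adjusted p = 6.54e-09, 6.75e-11 and 0.00249). At kainate day 10, when Fosb and Fosl2 were higher, 4 of the 31 were higher (2.57% of all genes were), among them Ptgs2 (1.39 ± 0.23), Plk2 (1.38 ± 0.27) and Bdnf (1.21 ± 0.26), which encodes brain-derived neurotrophic factor. At kindling stage 5, when Fos and Jun were lower, 2 of the 31 were higher and 2 lower (median -0.01), against 3.23% and 3.87% of all genes. Among these few, Arc, a synaptic immediate early gene, fell by 0.89 ± 0.15 on the log2 scale (adjusted p = 4.07e-04), while Bdnf rose by 0.58 ± 0.15 (adjusted p = 0.0143).

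Markers of granule cells and of other cell types were read beside the tissue label. All 13 of the 15 listed granule cell markers that were measured lay above the array median on average, Prox1 among them in all 164 rats. However, 8 of 9 astrocyte, 6 of 7 oligodendrocyte and 5 of 5 interneuron markers also did. Genes were kept only where they lay above that median in at least 6 rats. These counts are thus partly built in and do not test the tissue label. The mean level of the granule cell markers was 8.62 to 9.41 in pilocarpine A day 1 rats against 9.56 to 10.11 in its controls, and 8.94 to 9.15 in kainate A day 1 rats against 9.65 to 10.04 in its controls, with 10 of 13 markers lower in each of these models at day 1 and 0 higher. At the same time 4 of 9 microglia and macrophage markers were higher and 1 lower in each, with a mean level of 5.76 to 6.16 in pilocarpine B day 1 rats against 5.13 to 5.74 in its controls. Astrocyte markers were lower in 6 of 9 and higher in 1 in each model. The marker levels above are from 1 laboratory of a model, while the counts are over both laboratories. Of all genes, 32.1% passed in either direction at pilocarpine day 1 and 41.6% at kainate day 1. At kainate day 10, 4 of 9 microglia and macrophage markers were higher (2.57% of all genes were). There 3 of 13 granule cell markers were lower, with a median change of -0.13 for the list, against -0.01 over all genes. At kindling stage 5, 0 of 9 microglia and macrophage markers were higher, while 2 of 13 granule cell markers were lower and 1 higher. Of all genes, 3.87% were lower and 3.23% higher at that stage. The part of these shifts in the AP-1 changes was not tested.

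The 7 genes were next followed rat by rat. Of the 123 rats outside the control groups, 16 had at least 5 of the 7 genes above every control of their laboratory, 3 had all 7, and 24 had none. In the median rat 19.6% of all genes lay above the controls in this way. Of the 16, 4 were pilocarpine A day 1 rats and 4 pilocarpine B day 1 rats. The other 8 were spread over SSSE day 1 (1 rat), kainate day 1 (2 rats), kainate A day 3 (1 rat), kainate day 10 (3 rats) and pilocarpine B day 10 (1 rat), and none was a kindled rat.

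SSSE day 1 rat 5 had all 7 genes above its controls, with Fos at 11.15, Fosb at 11.24, Fosl2 at 8.93 and Junb at 10.73, while 25.6% of all genes lay above the controls in that rat. Kainate A day 10 rat 4 and kainate B day 10 rat 5 also had all 7 genes above, with 22.2% of all genes above in each. Pilocarpine B day 3 rat 2 had 4 above and 2 below, with Fos at 12.32, Fosb at 10.66 and Junb at 9.29. Of all genes, 26.0% lay above and 18.1% below the controls in that rat. What the rats did in the hours before they were killed is not given in the labels used here.

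**Figure D4:**
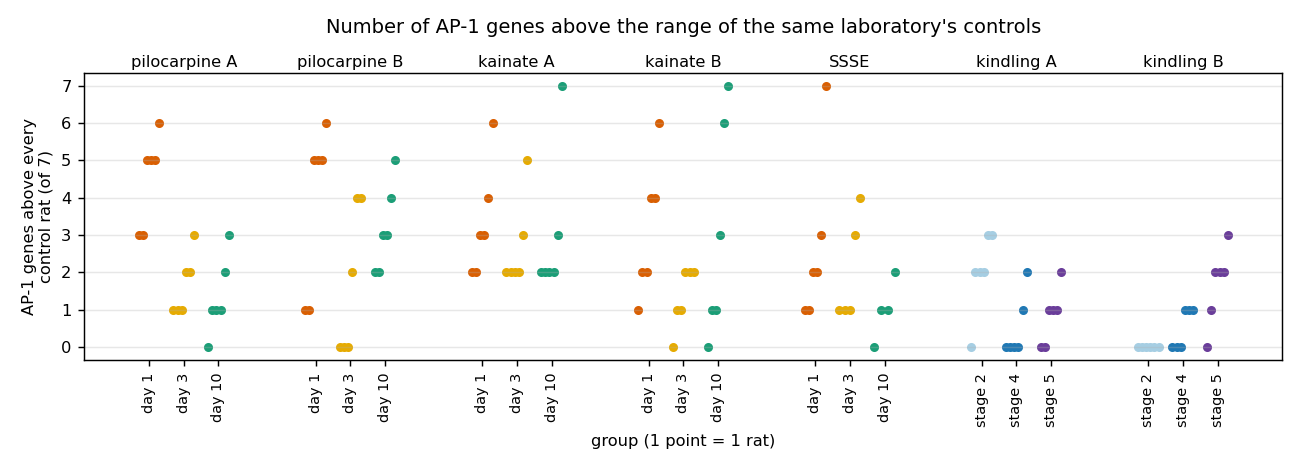
Number of the 7 genes that lay above every control rat of the same laboratory (vertical) for each of 123 rats (points) by group (horizontal). The pilocarpine day 1 groups each have 4 rats with 5 or more genes above, while 3 rats, 1 at SSSE day 1 and 2 at kainate day 10, have all 7.

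Across all 164 rats, after the mean of each group was removed, many pairs of members varied together. Of the 21 pairs, 15 had a Pearson correlation and 10 a Spearman correlation that passed a permutation test with labels shuffled within groups 100000 times (two-sided, adjusted over the 21 pairs). All genes share each array's signal, and how many pairs of other genes would pass was not tested. The counts therefore do not set these genes apart from others. The Pearson count was 13 without the 6 rats of low correlation, 13 after quantile normalization and 14 with deviations regressed on the array median, and every pair lost or gained was a pair with Jund. The pair Fos and Fosb had Pearson r = 0.63 (permutation p = 1e-05, adjusted p = 7e-05) and Spearman rho = 0.46 (permutation p = 1e-05, adjusted p = 2.10e-04), where 1e-05 is the smallest p that these permutations can give. Without the 2 rats farthest from the Fos median r was 0.53, and within the 7 laboratories it ran from -0.11 to 0.89, above 0 in 6. Fosb and Fosl2 had Pearson r = 0.61 (permutation p = 1e-05, adjusted p = 7e-05) and Spearman rho = 0.35 (permutation p = 3.10e-04, adjusted p = 0.00151), or 0.52 without the 2 farthest rats and -0.09 to 0.86 within laboratories. The rank correlations were lower than r in both pairs.

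Fos and Junb had Pearson r = 0.54 (permutation p = 1.20e-04, adjusted p = 4.20e-04) and Spearman rho = 0.31 (permutation p = 0.0012, adjusted p = 0.0042), and this pair was above 0 in all 7 laboratories (0.30 to 0.87), with r at 0.35 without the 2 farthest rats. Fos and Jun had Pearson r = 0.48 (permutation p = 1e-05, adjusted p = 7e-05) and Spearman rho = 0.39 (permutation p = 3e-05, adjusted p = 3.15e-04), 0.46 without the 2 farthest rats and 0.18 to 0.83 within laboratories. The r of Jund lay between -0.05 (Fos) and 0.25 (Fosl1), and its pairs with Fosb, Fosl1 and Fosl2 passed. Those of Fosl1 with Fos (0.14), Fosb (0.14) and Junb (0.19) were as low and did not pass. In control rats alone Fos and Fosb correlated at 0.42, Fosb and Fosl2 at 0.05, Fos and Junb at -0.23 and Fos and Jun at -0.16, against 0.65, 0.63, 0.64 and 0.56 in the rats of all other groups. The difference between controls and other rats was not tested.

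**Figure D5:**
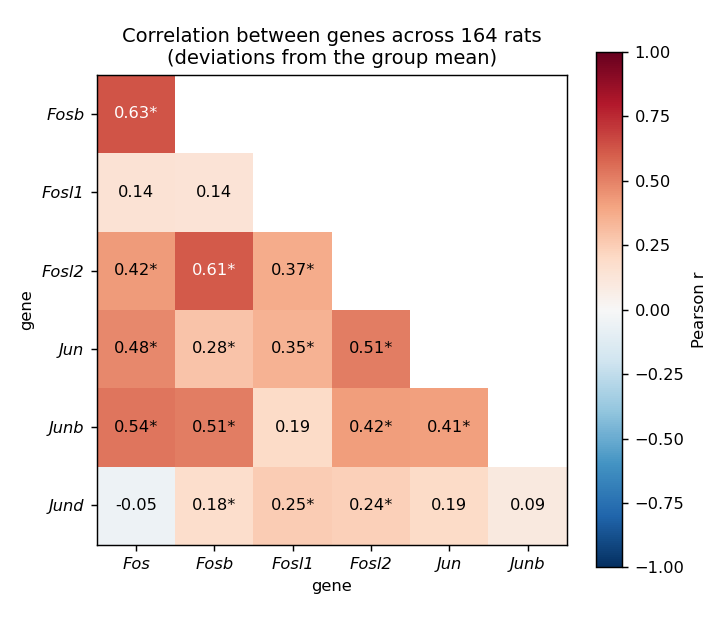
Pearson correlation between each pair of genes across 164 rats, from deviations of each rat from its group mean, with an asterisk where the adjusted permutation p was under 0.05. The highest values are 0.63 for Fos with Fosb and 0.61 for Fosb with Fosl2, and the values of Jund lie between -0.05 and 0.25.

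Among all genes tested, those most like each member across the 164 rats were named as a description. These values describe the same rats and share each array's signal, and they carry no test. For Fos the 3 highest correlations of deviations were with Egr2 (0.80), Nr4a1 (0.74) and Ier2 (0.72), for Fosb with Nr4a2 (0.86), Egr2 (0.84) and Arc (0.81), and for Fosl2 with Gadd45b (0.75), Midn (0.70) and Arc (0.68). For Jun they were Gadd45b (0.57), Stat3 (0.55) and Ier3 (0.52), for Junb Dusp1 (0.68), Gadd45g (0.66) and Ier2 (0.66), for Jund Ctnnb1 (0.66), Map1b (0.59) and Ppp3ca (0.58) and for Fosl1 Cd300c2 (0.52), Cxcl1 (0.49) and Sik1 (0.49). Over the 21 changes of group means the genes most like Fos were Egr2 (0.92), Apex2 (0.87) and Atf3 (0.86), those most like Fosb were Cnot6l (0.88), Bdnf (0.82) and Etv3 (0.82), and those most like Fosl2 were Bag3 (0.90), Arf4 (0.89) and Mrps12 (0.88). For Jun they were Tgoln2 (0.91), Cystm1 (0.90) and Tfpi2 (0.90), for Junb Trmt112 (0.83), Ier2 (0.82) and Sertad1 (0.81), for Jund Psmd11 (0.77), Gabpb1 (0.74) and Mob4 (0.72) and for Fosl1 Tspan15 (0.86), Sqstm1 (0.85) and Sc5d (0.85).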

How the data were processed

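The deposited values were signal intensity per probe set, made by the authors with MAS5, per the submitters' processing notes, which name no version. In each array the mean after leaving out 2% of probe sets at either end was 150.04 to 150.06, so the arrays had been scaled to a common level. RNA had come from sections of 10 µm, with an RNA integrity number above 7.0 and at least 10 ng per sample, per the labels. Of 31042 probe sets that were not array controls, 20826 had 1 gene symbol in the platform annotation, 436 had several and 9780 had none. The number of arrays limits the precision.

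Here 16 was added to each signal before log2, and 8 rats with a repeated array were averaged (r between arrays 0.946 to 0.996). Probe sets above the median of their array in at least 6 rats were kept (14282), and the brightest probe set stood for each of 10761 genes. Of 13 probe sets of the 7 genes, 10 were kept. Each model was fitted with limma 3.58.1 in R 4.3.3, changes were averaged over laboratories, and p-values were adjusted by Benjamini-Hochberg over all genes at 0.05. Figures and correlations used Python 3.11.15 with numpy 2.4.6, pandas 2.3.3 and matplotlib 3.10.9. The fit and the correlation test were tested on simulated data. SSSE day 1 rat 3 was grouped by its title, and kindling A stage 2 rat 4 by the laboratory and stage in its title.

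The genes named were the 7 members, the 3 called genes with the largest absolute change from each pathway list in each comparison (of which some are described), and the 3 genes most alike to each member. The members and lists were chosen with earlier results of these data known. Alternatives were the pseudocount, quantile normalization, the filter, the second probe set, 1 fit over all groups, the rat number as a block, the first array only, each laboratory alone, for pairs also a regression of deviations on the array median, and 6 rats left out whose correlation with their group was more than 0.02 below the group's median. Leaving out each rat in turn in the comparisons of 2 laboratories, and leaving out the 2 rats of conflicting labels, were chosen after seeing the data.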

Additional observations from a re-analysis of the deposited data

Results flagged for a closer look

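Of 196 combinations of gene and group, 27 had 1 rat far from the others of its group, in 22 of them the highest. Chance gives about 1 in 20 groups, or 5%, for a single gene. The combinations are not independent, since 1 rat can be flagged for several genes, so the count was not tested against that share. The levels are log2 of signal plus 16. SSSE day 1 rat 5 had Fos at 11.15, Fosb at 11.24, Fosl1 at 6.17, Fosl2 at 8.93, Jun at 11.52 and Junb at 10.73. SSSE day 10 rat 2 had Fos at 5.83, Fosb at 7.03 and Fosl2 at 5.46. Pilocarpine B day 3 rat 2 had Fos at 12.32, Fosb at 10.66 and Junb at 9.29. Kainate A day 10 rat 4 had Fosl2 at 8.94 and Junb at 8.96. SSSE day 3 rat 4 had Fosb at 9.83, kainate B day 1 rat 6 had Fosb at 10.71, and kindling A control rat 6 had Fosb at 7.41. Kindling A stage 2 rat 3 had Fosb at 7.68, kindling B control rat 4 had Fosb at 6.58, and kindling A stage 2 rat 5 had Fosl2 at 7.20. Kindling A stage 5 rat 1 had Fosl2 at 5.00, pilocarpine A day 10 rat 2 had Fosl2 at 5.18, and SSSE control rat 5 had Jund at 9.23. Kainate A control rat 5 had Jund at 9.26, kindling A stage 2 rat 1 had Jund at 10.60, and kindling A stage 4 rat 5 had Jund at 9.41. Kindling B stage 4 rat 4 had Jund at 11.00.

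The Jun change at day 1 differed between models by 0.98 (pilocarpine minus SSSE) by a test of the difference. For pilocarpine day 3 minus day 1 the tested difference on the log2 scale was -0.85 (Fosl1), -1.42 (Fosl2) and -1.08 (Jun). For pilocarpine day 10 minus day 1 the tested difference on the log2 scale was -0.57 (Fosl1), -1.23 (Fosl2), -0.89 (Jun) and -0.78 (Junb). For kainate day 3 minus day 1 the tested difference on the log2 scale was -1.13 (Fosl2) and -0.66 (Jun). For kainate day 10 minus day 1 the tested difference on the log2 scale was -0.57 (Jun). For kindling stage 5 minus stage 2 the tested difference on the log2 scale was -1.41 (Fos). These 12 differences were tested with limma over all genes, among 63 differences between models and 84 between times.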

How the results depend on the processing

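Of the alternatives for single changes, 934 kept direction and side of the threshold, 22 lost the call, 9 gained one and 1 reversed. Most of the 934 were changes that did not pass in the main fit either. Some could hardly move, since Fosb, Fosl1 and Junb have no second probe set and only 8 rats had a repeated array. The count is therefore no measure of how firm the calls are. The reversed change was Fos at kindling stage 5, at 0.0046 with the second brightest probe set (adjusted p = 0.980). After quantile normalization 3 members passed at kainate day 1 (Fosl1, Fosl2 and Jun) and 1 at kainate day 3 (Jun). With the second brightest probe set 2 passed at kainate day 1 (Fosl2 and Jun), 1 at kainate day 10 and 1 at kindling stage 5. With 1 fit over all 28 groups 1 passed at SSSE day 1 and 0 at kindling stage 5. Without the 6 rats of low correlation 1 passed at kainate day 10 and 1 at SSSE day 1. Laboratory A fitted alone gave 2 at kainate day 1, 1 at kainate day 10 and 0 at kindling stage 5, and laboratory B fitted alone gave 0 at pilocarpine day 1, 0 at kainate day 10 and 1 at kindling stage 5, each from fewer rats. Model differences numbered 0 after quantile normalization, 2 with a pseudocount of 64, 2 without the 6 rats and 0 without the 2 rats of conflicting labels. Leaving out 1 rat gave 5 to 6 members at pilocarpine day 1, 1 to 2 at kainate day 1, 1 to 2 at kainate day 10, 1 to 2 at kindling stage 5, 0 to 1 at SSSE day 1 and 0 to 0 at SSSE days 3 and 10. Fosl1 at pilocarpine day 1 was not called with a pseudocount of 1 (adjusted p = 0.133) or with no filter (0.0607). Of the alternatives for pairs of genes, 77 kept the call, 6 lost it and 1 gained it. Other causes were not tested. With the replicate block by rat number 5 members passed at pilocarpine day 1, 1 at kainate day 1, 2 at kainate day 10, 2 at kindling stage 5 and 0 elsewhere. The block ended the call of Fosl1 at pilocarpine day 1 (adjusted p = 0.0677). The numbers were not taken as pairs, since not every correlation was above 0.1: same-numbered rats correlated between -0.46 and 0.65 (median 0.068), while 50 of 164 rats correlated best with their own number, where chance gives 27.2, which is a hint from the data and not from the design. The dim Fosl1 and Fosl2 probe sets, above the array median in 22 and 72 rats, limit what can be seen of these genes.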
